A study of Mus musculus with 6 samples.

Results

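CC chemokines are small secreted proteins, named for a pair of adjacent cysteines, that direct leukocytes by binding receptors of the Ccr family. The genes described here are the 9 mouse CC chemokines listed as ones that stromal cells can secrete: Ccl2, Ccl5, Ccl7, Ccl8, Ccl9, Ccl11, Ccl20, Ccl25 and Ccl27a. They were picked by gene name, with earlier results of these data known, and all 9 were found among the 56748 genes of the table. The libraries were RNA sequencing of cultured mouse adipose-derived stem cells, which are stromal cells grown from fat. In 3 libraries, titled oe, the cells had been transduced to carry a pair of integrins, VLA-4 (encoded by Itga4 with Itgb1) and LFA-1 (encoded by Itgal with Itgb2), and the genotype is given as overexpressing both. In the other 3, titled mock, the genotype is given as WT, and the protocol says an empty vector while the design text says unmodified cells. The sources used here do not give the vector's promoter, the species of the transduced sequences, or the mouse strain and age. They also do not say that replicates are separate cultures or mice, so the p-values rest on variation between libraries that may be only technical.

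CC chemokines are induced in fibroblasts and other stromal cells by inflammatory signals that act through NF-kB and interferon signalling, and they bind heparan sulfate at the cell surface. Ccl2 and Ccl7 act on Ccr2 and recruit monocytes, for example from the blood into fat and into the vessel wall. The other members act mainly on other receptors and draw T cells, eosinophils, dendritic cells, B cells or, as for Ccl5, also monocytes.

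Library totals ran from 15723888 to 18185832 counts in the oe libraries and from 16904703 to 18381083 counts in the mock libraries. The labels were checked against the transduced subunits, and none of these had more counts in the libraries labelled overexpressing. Itga4 had 133 counts over the 3 libraries labelled overexpressing and 335 over the 3 mock ones, and Itgb1 had 118688 and 143294. Both went against the labels and were called lower (log2 fold changes -1.38 and -0.32). Itgal had 7 and 7 counts and Itgb2 had 15 and 38, and both were below the filter and not tested. Every direction below is therefore between libraries as labelled. All 10 stromal markers had counts, but Nt5e had only 28 over the overexpressing-labelled and 20 over the mock-labelled libraries. Their sum, in CPM (counts scaled by library size), was 10073 to 12008 in the overexpressing-labelled group against 22203 to 23874 in the mock-labelled group, most of it Col1a1 and Col1a2, and 7 of the 10 were called lower. Lymphocyte markers summed to at most 0.478 CPM in the overexpressing-labelled group and 0.113 CPM in the mock-labelled group. Of 12 macrophage markers, Aif1 and Cd163 had 0 counts, Ptprc had 5 and 8 counts and Adgre1 had 0 and 5 over the overexpressing-labelled and mock-labelled libraries, and their sum was 16.9 to 20.6 CPM against 21.7 to 25.2 CPM. Of the 4 tested, Csf1r was lower (449 and 671 counts, log2 fold change -0.63), and Lyz2 (-0.56), Cd14 (0.40) and Cd68 (0.33) were not called. Of 6 tested Schwann cell markers 5 were lower, and the list's sum was 4.67 to 5.11 CPM in overexpressing-labelled libraries against 28.5 to 34.4 CPM in mock-labelled ones. Of 4 tested endothelial markers, Pecam1 was lower (10 and 67 counts), Tek was higher (825 and 311 counts) and 2 were not called, and the list summed to 21.9 to 22.9 CPM against 15.8 to 19.3 CPM. The 1 tested mesothelial marker, Krt19, was lower, Wt1 had 0 counts, and that list summed to 29.8 to 32.7 CPM against 39.5 to 44.9 CPM. Beside these calls, 23.0% of all tested genes were called lower and 22.3% higher. The part of the markers in the results below was not tested. In bulk RNA, fewer cells of a type and less RNA per cell cannot be told apart.

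Of the 9 members, 6 were lower in the overexpressing-labelled libraries, 0 were higher and 3 were not called (edgeR quasi-likelihood test, Benjamini-Hochberg adjusted p under 0.05 over 14502 tested genes). All 9 passed the filter on low counts. Ccl5, with 9, 5 and 1 counts in the overexpressing-labelled libraries, passed only through the mock-labelled ones, where it was higher. It is counted among the 6, although a minimum count of 30 left it untested. Over all tested genes 45.3% were called in either direction, 23.0% lower and 22.3% higher, against 66.7% of the members called lower. The members' median log2 fold change (overexpressing-labelled over mock-labelled) was -1.90, and that of all tested genes was 0.0052. The genes called were Ccl2, Ccl7, Ccl8, Ccl11, Ccl5 and Ccl20, and the other 3 were Ccl9, Ccl25 and Ccl27a. The groups did not overlap for 7 members, all lower, where 53.4% of all tested genes had no overlap in either direction and 26.5% were lower without overlap. Scaling by library size alone raised the share of called genes that were higher to 65.8%, in place of 49.2%, and moved the median of all genes to 0.12, and the same direction held for all 9 members. In the authors' deposited table the same 6 members had an adjusted p under 0.05.

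**Figure D1:**
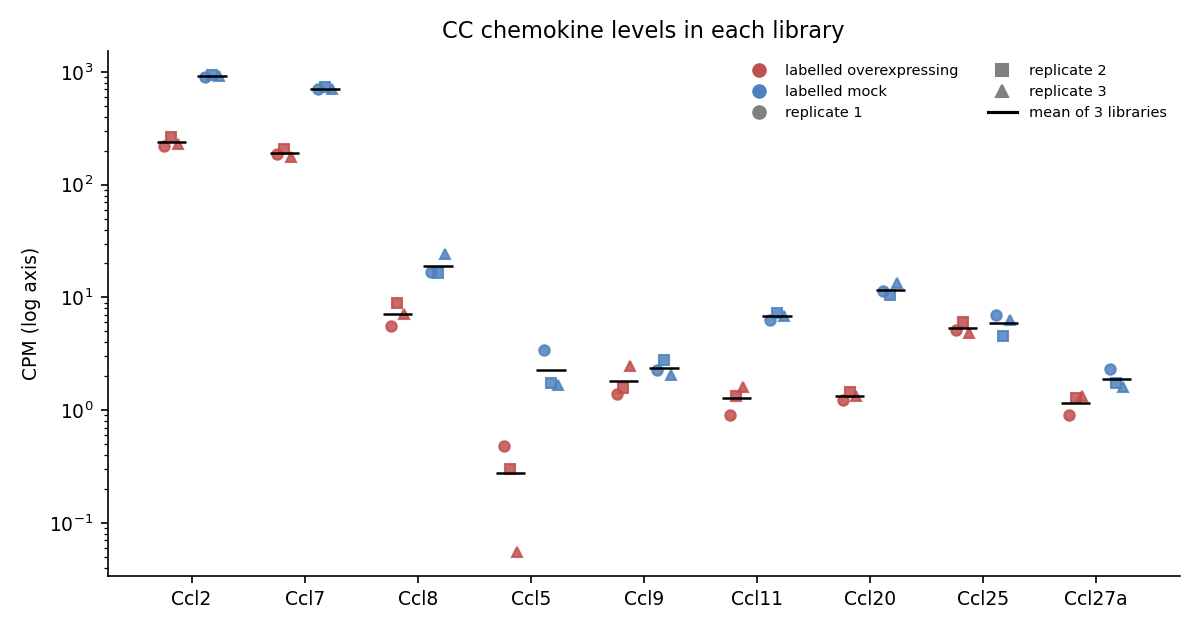
Level of each CC chemokine in each library, in CPM on a log axis, with the overexpressing-labelled libraries to the left of the mock-labelled ones and a black line at the mean of 3 libraries. Ccl2 and Ccl7 stood far above the rest in both groups, and Ccl9 and Ccl25 were the 2 genes whose groups overlapped.

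Promoter windows, from 250 bases before to 50 bases after an annotated start, were taken from RefSeq on build GRCm38.p6 for the members that had one. By symbol 5 members matched, with 8 windows. The set of windows used here held none for Ccl2, Ccl5, Ccl7 and Ccl11, which does not mean that they lack an annotated start. Of the called members, only Ccl8 and Ccl20 could therefore be searched. The windows of Ccl20 and Ccl8 are shown because these genes were called lower, and that of Ccl9 because it was not, although it lies in the same chemokine cluster as Ccl5. Each runs 5′ to 3′ on the gene's strand and ends inside an annotated transcript. Capitals mark matches, on either strand, to the NF-kB consensus or to the AP-1 site TGANTCA. The Ccl20 window is chr1:83116516-83116815 (plus strand), the Ccl8 window is chr11:82114935-82115234 (plus strand) and the Ccl9 window is chr11:83578587-83578886 (minus strand).
Ccl20: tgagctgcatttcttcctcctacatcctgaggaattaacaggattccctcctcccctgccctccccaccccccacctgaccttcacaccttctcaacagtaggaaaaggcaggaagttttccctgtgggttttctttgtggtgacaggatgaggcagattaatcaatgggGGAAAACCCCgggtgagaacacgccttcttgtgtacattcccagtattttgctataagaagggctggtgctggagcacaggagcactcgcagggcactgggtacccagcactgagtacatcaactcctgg
Ccl8: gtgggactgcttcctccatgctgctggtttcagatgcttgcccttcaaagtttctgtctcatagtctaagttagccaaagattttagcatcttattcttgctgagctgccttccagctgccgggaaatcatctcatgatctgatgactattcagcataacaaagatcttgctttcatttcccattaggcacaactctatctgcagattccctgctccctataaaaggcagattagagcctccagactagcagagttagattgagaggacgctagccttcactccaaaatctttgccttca
Ccl9: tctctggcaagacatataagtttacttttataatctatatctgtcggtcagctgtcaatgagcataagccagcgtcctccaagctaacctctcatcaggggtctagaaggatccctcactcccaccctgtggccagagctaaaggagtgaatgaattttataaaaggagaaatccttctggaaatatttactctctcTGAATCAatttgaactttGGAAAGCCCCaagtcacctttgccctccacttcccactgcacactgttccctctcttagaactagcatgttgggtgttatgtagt

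The Ccl20 window held an NF-kB match, GGAAAACCCC on the printed strand, 80 to 71 bases before the start. Ccl9 held an NF-kB match, GGAAAGCCCC, 35 to 26 bases before the start, and an AP-1 match, TGAATCA, 53 to 47 bases before it. The Ccl8 window held no match. Of the windows not shown, 1 of the 3 of Ccl27a held an NF-kB and an AP-1 match, and those of Ccl25 held none. Thus 3 of the 8 member windows held the NF-kB consensus and 2 the AP-1 site. The 8 windows belong to 5 genes, and Ccl27a has windows that overlap each other, so they are not separate units. An interferon response element core (GAAANNGAA) and a STAT site (TTCNNNGAA) were also searched and matched none of the 8 member windows. No matches overlapped in the windows shown. Of all 32851 promoter windows of this length, 8.46% held the NF-kB consensus, 7.81% the AP-1 site, 8.56% the interferon element core and 8.30% the STAT site. Both a gene that was called lower and a gene that was not held an NF-kB match, and a match is a description of letters, not of binding.

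Ccl2, also called MCP-1, is the main Ccr2 ligand and attracts monocytes (chromosome 11, 81926397 to 81928279, mm39, protein-coding, as are all members). It had 222, 265 and 229 CPM in overexpressing-labelled replicates 1, 2 and 3, against 906, 946 and 926 CPM in mock-labelled replicates 1, 2 and 3. Every overexpressing-labelled library was below every mock-labelled library by a wide margin, and the spread within either group was small beside the gap. Ccl2 averaged 239 ± 23.3 CPM against 926 ± 20.1 CPM (SD, n = 3 each), and the log2 fold change was -1.96 (SE 0.065, edgeR adjusted p = 1.32e-16), or 3.88-fold lower. Ccl2 lies over the gene Gm17268 on the opposite strand, which had 0 counts in both groups.

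Ccl7, or MCP-3, is another Ccr2 ligand that also binds other CC receptors, and its gene starts 10.1 kb downstream of Ccl2 (81936538 to 81938351). It had 188, 209 and 174 CPM in the overexpressing-labelled libraries, against 699, 735 and 698 CPM in the mock-labelled ones. As for Ccl2, the groups were far apart, and replicate 2 was the highest library within each group. The means were 190.4 ± 17.4 CPM against 711 ± 21.0 CPM (SD, n = 3 each), and the log2 fold change was -1.90 (SE 0.064, edgeR adjusted p = 1.77e-16).

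Ccl8, or MCP-2, acts on Ccr8 in the mouse (82006011 to 82007625). It had 5.58, 8.85 and 7.10 CPM in the overexpressing-labelled libraries, against 16.7, 16.5 and 24.4 CPM in the mock-labelled libraries. The groups did not overlap, and mock-labelled replicate 3 was higher than the other mock-labelled libraries. The log2 fold change was -1.42 (SE 0.16, edgeR adjusted p = 2.32e-07), or 2.68-fold lower, the smallest among the 6 called members.

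Ccl11, or eotaxin, attracts eosinophils through Ccr3 (81948649 to 81953781). It had 0.903, 1.33 and 1.61 CPM in overexpressing-labelled libraries, from 17, 22 and 29 counts, against 6.35, 7.25 and 6.91 CPM in mock-labelled libraries, from 112, 128 and 112 counts. The groups were well separated, with more relative spread in the overexpressing-labelled group. The log2 fold change was -2.41 (SE 0.23, edgeR adjusted p = 1.31e-08), or 5.33-fold lower.

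Ccl5, or RANTES, is a chemokine that attracts T cells and monocytes (chromosome 11, 83416604 to 83421344). It had 0.478, 0.303 and 0.056 CPM in the overexpressing-labelled libraries, from 9, 5 and 1 counts, against 3.40, 1.76 and 1.66 CPM in the mock-labelled libraries, from 60, 31 and 27 counts. The groups did not overlap, but the counts were few, and overexpressing-labelled replicate 3 was below the 0.167 CPM that 3 counts would give in it. Its log2 fold change was -2.99 (SE 0.49, edgeR adjusted p = 3.22e-05), or 7.94-fold lower. The summed counts, 15 and 118, gave a fold of 8.15 with a 95% exact counting interval of 4.74 to 15, which covers counting error only. With single libraries left out the fold ran from 5.69, without overexpressing-labelled replicate 3, to 12.6, without overexpressing-labelled replicate 1. Ccl5 stayed called each time, but it passed the filter only through the mock-labelled libraries, so these calls are no separate support.

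Ccl20 draws dendritic cells, B cells and T cells through Ccr6 (chromosome 1, 83094487 to 83096888), and its promoter window with an NF-kB match is printed above. It had 1.22, 1.45 and 1.33 CPM in overexpressing-labelled libraries, from 23, 24 and 24 counts, against 11.3, 10.4 and 13.4 CPM in mock-labelled libraries, from 200, 184 and 217 counts. The overexpressing-labelled libraries lay close together, all far below the mock-labelled ones. The log2 fold change was -3.13 (SE 0.19, edgeR adjusted p = 8.40e-12), or 8.74-fold lower, the largest point estimate among the 9 members. Its 95% interval, -3.53 to -2.73, did not reach that of Ccl2, -2.09 to -1.82, and overlapped that of Ccl5, -4.01 to -1.97.

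**Figure D2:**
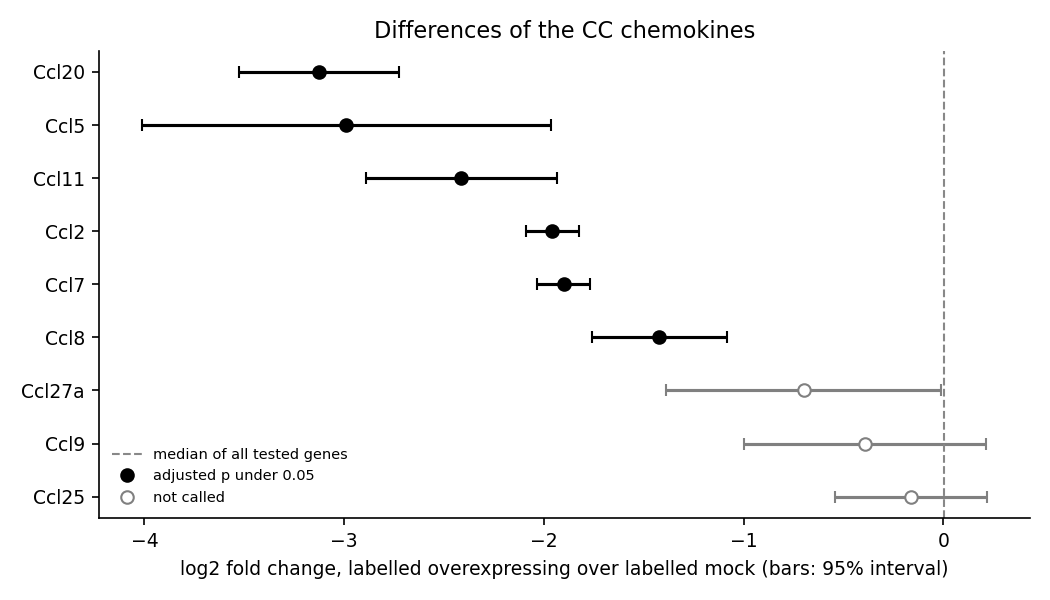
Log2 fold change of each CC chemokine, overexpressing-labelled over mock-labelled libraries, with 95% intervals from the edgeR fit, filled for an adjusted p under 0.05. The 6 called members lie between -3.13 and -1.42, left of the dashed median of all tested genes at 0.0052, and the intervals of Ccl9 and Ccl25 cross 0.

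Ccl9, a Ccr1 ligand also called MIP-1 gamma, is a neighbour of Ccl5 (83463745 to 83469462). It had 1.38, 1.58 and 2.44 CPM in overexpressing-labelled libraries, against 2.27, 2.78 and 2.03 CPM in mock-labelled libraries. The groups overlapped, because overexpressing-labelled replicate 3 was above 2 of the mock-labelled libraries. The log2 fold change was -0.39 (SE 0.29, edgeR adjusted p = 0.289), with a 95% interval of -1.0 to 0.21. A decrease as large as that of Ccl8 lies outside this interval.

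Ccl25, or TECK, guides thymocytes and gut-homing T cells through Ccr9 (chromosome 8, 4375210 to 4410020). It had 5.15, 6.0 and 4.88 CPM in overexpressing-labelled libraries, against 7.03, 4.59 and 6.29 CPM in mock-labelled libraries. The lowest of the 6 libraries was a mock-labelled one, so the groups overlapped. The log2 fold change was -0.16 (SE 0.18, edgeR adjusted p = 0.504), with a 95% interval of -0.54 to 0.22. The gene overlaps Elavl1 on the opposite strand over 204 bases, and since the sources used here give no strand setting for the counting, reads of the overlap cannot be told apart. Elavl1, with 4685 and 4639 counts over overexpressing-labelled and mock-labelled libraries, was not called either (edgeR adjusted p = 0.67).

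Ccl27a, or CTACK, recruits skin-homing T cells through Ccr10 (chromosome 4, 41769467 to 41774247). It had 0.903, 1.27 and 1.33 CPM in overexpressing-labelled libraries, against 2.32, 1.76 and 1.60 CPM in mock-labelled libraries. The groups did not overlap, yet the call was missed: the log2 fold change was -0.70 (SE 0.33, edgeR adjusted p = 0.0915), with an unadjusted 95% interval of -1.39 to -0.010. On log2(FPKM + 0.1), where FPKM is a level per transcript length and depth, limma gave an adjusted p of 0.0397 and a log2 difference of -0.61. The counts were few, 62 over overexpressing-labelled and 98 over mock-labelled libraries. Ccl27a has near-identical copies in the mouse genome, and reads can be split between them, which was not tested. The copy Ccl27b held 0 and 1 counts over overexpressing-labelled and mock-labelled libraries, which does not show how shared reads were counted. The span of Ccl27a overlaps Il11ra1, on the other strand, by 8 bases, and reads of that overlap cannot be told apart. Il11ra1 was lower, with 1586 and 2380 counts over overexpressing-labelled and mock-labelled libraries (log2 fold change -0.64, edgeR adjusted p = 1.31e-06).

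Per length, the same genes led in every library. In FPKM, Ccl7 was first, followed by Ccl2 and then by Ccl8, in all 6 libraries. Ccl7 averaged 236 ± 20.6 FPKM in overexpressing-labelled and 885 ± 29.9 FPKM in mock-labelled libraries, Ccl2 208 ± 19.3 and 811 ± 20.1 FPKM, and Ccl8 13.9 ± 3.11 and 37.4 ± 8.59 FPKM (SD, n = 3 each). Ccl7 ranked 94 to 129 among all genes by FPKM in overexpressing-labelled libraries, against 24 to 30 in mock-labelled libraries. The Ccl2 ranks were 120 to 147 against 29 to 35.

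Below these 3 genes the order was less firm. Ccl20 averaged 0.932 ± 0.077 FPKM in overexpressing-labelled libraries and 8.21 ± 1.03 FPKM in mock-labelled ones, and Ccl11 averaged 1.17 ± 0.33 and 6.30 ± 0.43 FPKM. Ccl20 was above Ccl11 in all 3 mock-labelled libraries and below it in 2 overexpressing-labelled libraries. Ccl5 came sixth in every mock-labelled library, at 2.36 ± 1.01 FPKM, and was seventh, ninth and ninth in overexpressing-labelled replicates 1, 2 and 3. The levels of Ccl9, Ccl25 and Ccl27a were within 0.378 to 0.974 FPKM in all 6 libraries, and their order changed from library to library.

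The members together made up 0.0465 ± 0.0047% of all counts in overexpressing-labelled libraries and 0.162 ± 0.0042% in mock-labelled libraries. Their FPKM summed to 461 ± 40.9 against 1753 ± 45.0. Ccl2 and Ccl7 held 96.1 ± 0.53% of that sum in overexpressing-labelled libraries and 96.8 ± 0.54% in mock-labelled libraries, so the family total followed these 2 genes.

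Ratios within a library do not depend on scaling, and each member was set against Ccl2 for this reason. Ccl7 kept nearly the same ratio: there were 847, 788 and 762 Ccl7 counts per 1000 Ccl2 counts in overexpressing-labelled libraries, against 772, 777 and 754 in mock-labelled libraries, and the groups overlapped (difference of log2 ratios 0.056, exact permutation p = 0.3). Because Ccl2 was itself lower, the direction of each other ratio follows from the fold changes given above, and the ratios are no separate evidence. Ccl20 had 5.51, 5.49 and 5.82 counts per 1000 Ccl2 counts in overexpressing-labelled libraries, against 12.5, 11 and 14.4 in mock-labelled libraries. Ccl25 had 23.2, 22.6 and 21.3 counts per 1000 Ccl2 counts in overexpressing-labelled libraries, against 7.76, 4.85 and 6.79 in mock-labelled libraries. These ratios, and that of Ccl27a, were added after the data were seen and are given as a description. Among the members planned for this comparison, Ccl9 had 6.23, 5.94 and 10.7 counts per 1000 Ccl2 counts in overexpressing-labelled libraries, against 2.50, 2.93 and 2.20 in mock-labelled libraries (exact two-sided permutation p = 0.1, the smallest that 3 against 3 libraries allow). The ratios of Ccl5, Ccl8 and Ccl11 overlapped between the groups (exact permutation p = 0.3, 0.2 and 0.2), and no p passed 0.05 before or after adjustment.

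**Figure D3:**
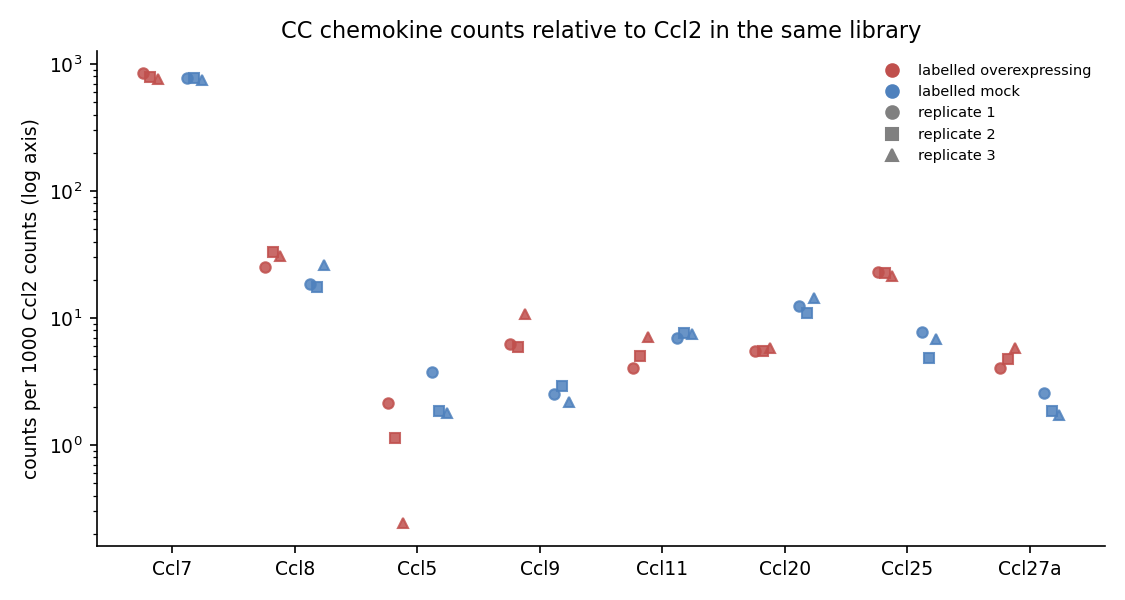
Counts of each member per 1000 Ccl2 counts of the same library, on a log axis, with overexpressing-labelled libraries to the left of mock-labelled ones. Ccl7 lies between 754 and 847 in all 6 libraries, Ccl20 is lower and Ccl9, Ccl25 and Ccl27a are higher in every overexpressing-labelled library.

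The pair with the most alike profiles was Ccl2 and Ccl7. After each gene was centred on its own mean log2 CPM, their root mean square difference over the 6 libraries was 0.055 on the log2 scale. That of Ccl2 with Ccl11 was 0.29, with Ccl8 0.35, with Ccl20 0.54 and with Ccl25 0.93. Among genes outside the family, the nearest to Ccl2 were Shfl, an inhibitor of viral frameshifting (0.061), Igf1, a growth factor (0.069), and Sox11, a transcription factor (0.070). Igf1 (0.059) and Shfl (0.069) were also nearest to Ccl7, followed by Ddx58, the RNA sensor RIG-I (0.10). The nearest to Ccl8 were Mgp, a calcification inhibitor of the matrix (0.039), Lgi3 and Rnf150. For Ccl11 they included Ppp1r14a and Parp9, both at 0.12. For Ccl20 they were Xaf1 (0.11), AW011738 and Gbp2, a guanylate-binding protein. For Ccl5, whose counts were few, the closest gene, Gm42528, was 0.32 away, followed by Gm5970 and Hap1. The distance was taken over the same 6 libraries, so genes near a member that is lower are lower too by construction. Igf1, for example, had 9.74 ± 0.62 CPM in overexpressing-labelled libraries against 39.2 ± 0.47 CPM in mock-labelled ones.

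On chromosome 11, where 6 members lie, 5 were called lower. For the counts in this paragraph, the shares over all tested genes were 23.0% lower and 22.3% higher. Ccl2, Ccl7, Ccl11 and Ccl8 lie within 81.2 kb, and all 4 were lower, with a median log2 fold change of -1.93. Within 500 kb on either side, a window chosen after the data were seen, the other tested gene was Tmem132e, 353 kb from Ccl2, and it was higher (log2 fold change 2.12, SE 0.18, edgeR adjusted p = 1.64e-09). Ccl5 and Ccl9 lie in a second stretch of 52.9 kb, in which Ccl5 was called and Ccl9 was not. Around it 13 other genes were tested, of which 6 were lower, 3 higher and 4 not called, with a median of -0.15. The lowest was Slfn2, of the Schlafen family, with a log2 fold change of -4.49 (edgeR adjusted p = 6.07e-19), and Taf15, whose lowest coordinate is 52.7 kb from that of Ccl5, fell by 0.29 on the log2 scale.

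**Figure D4:**
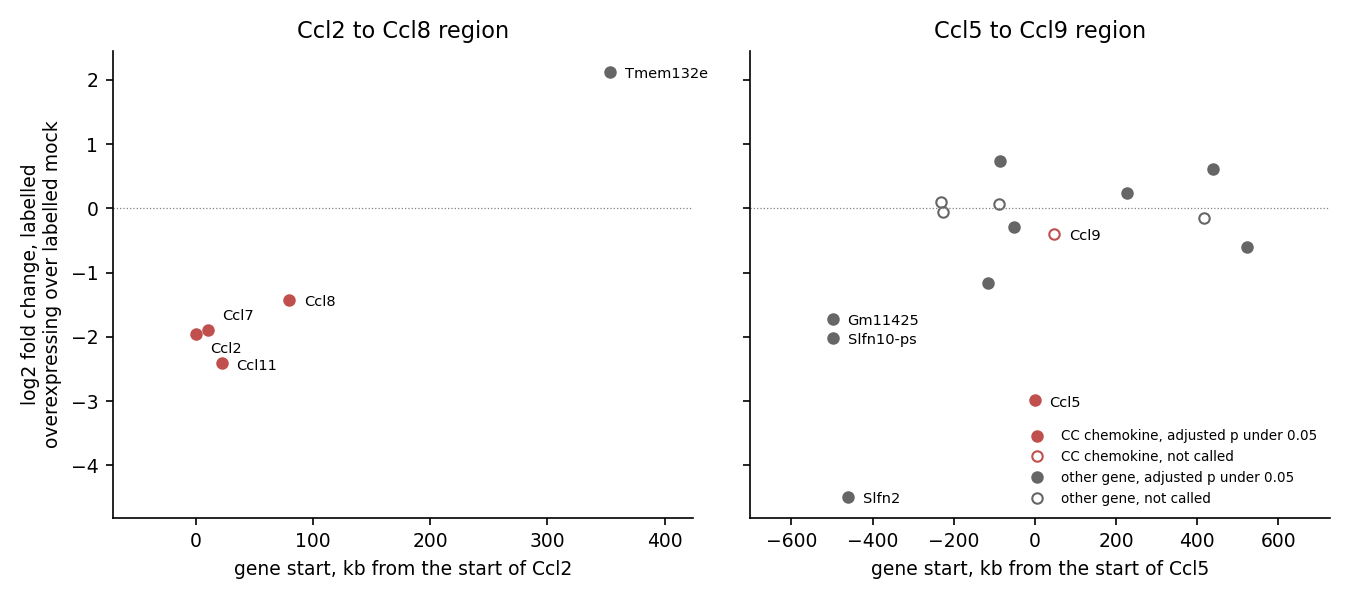
Log2 fold change of tested genes by distance of a gene's lowest coordinate from that of Ccl2 (left) or Ccl5 (right), in kb, with CC chemokines in red, other genes in grey and open circles for genes not called. The 4 chemokines of the Ccl2 cluster lie between -2.41 and -1.42 while Tmem132e is at 2.12, and around Ccl5 the other genes lie between -4.49 and 0.74.

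The other CC chemokine genes were nearly silent. Of 15 further ligands, 7 had 0 counts in all 6 libraries (Ccl19, Ccl21a, Ccl21b, Ccl21d, Ccl22, Ccl24 and Ccl26) and 2 had at least 10 counts. Ccl28, a ligand of Ccr10 and Ccr3, had 1.05 ± 0.16 CPM in overexpressing-labelled and 1.01 ± 0.21 CPM in mock-labelled libraries and was not called (log2 fold change 0.059, SE 0.37, edgeR adjusted p = 0.912). Ccl17, a Ccr4 ligand, had 5 counts over overexpressing-labelled and 7 over mock-labelled libraries. Ccl12, the Ccr2 ligand between Ccl11 and Ccl8, had 0 and 3 counts, and the macrophage chemokines Ccl3 and Ccl4 had 0 and 1, and 1 and 0.

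Receptors for these ligands were likewise scarce. Of 15 receptors and atypical receptors, Ccr2, Ccr6 and Ccr8 had 0 counts, and 2 passed the filter. Ackr3, an atypical receptor known for scavenging CXC chemokines, had 33.9 ± 1.84 CPM in overexpressing-labelled and 20.4 ± 1.60 CPM in mock-labelled libraries and rose (log2 fold change 0.73, SE 0.090, edgeR adjusted p = 6.28e-07). Ccrl2 had 25 counts over overexpressing-labelled and 34 over mock-labelled libraries and was not called (edgeR adjusted p = 0.436). Counts over overexpressing-labelled and mock-labelled libraries were 29 and 8 for Ackr1, a receptor that binds many CC and CXC chemokines, 32 and 18 for Ackr4, 21 and 26 for Ccr1, 14 and 10 for Ccr10, and 9 and 8 for Ccr9. These 5 genes were below the filter and were not tested.

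Genes that act on chemokine transcription and message decay were called in both directions. Of all tested genes, 23.0% were lower and 22.3% higher. Of 16 genes of NF-kB and mRNA decay, 8 were lower, 3 were higher and 5 were not called, with a median log2 fold change of -0.20, and with library size scaling alone 6 were higher and the median was -0.092. Without overexpressing-labelled replicate 2, 5 were higher. Nfkbiz, a nuclear co-activator of NF-kB target genes, had 54.0 ± 1.74 CPM in overexpressing-labelled and 127 ± 4.51 CPM in mock-labelled libraries (log2 fold change -1.23, edgeR adjusted p = 2.20e-13). Zc3h12a, an RNase that degrades inflammatory messages, had 29.0 ± 2.11 against 66.2 ± 5.12 CPM, and Tnfaip3, a feedback inhibitor, 28.1 ± 1.70 against 52.6 ± 1.3 CPM. Nfkb1, the p105/p50 subunit, had a log2 fold change of -0.52, while Ikbkg (NEMO), Zfp36 (tristetraprolin, which destabilises AU-rich messages) and Rela (p65) rose by 0.71, 0.48 and 0.47.

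Of 21 receptors and adaptors whose ligands induce CC chemokines, 13 were lower, 2 higher and 6 not called, with a median of -0.56. The count of higher genes was 1 without overexpressing-labelled replicate 1 or 3, or without mock-labelled replicate 1 or 2. Among all tested genes, 23.0% were lower and 22.3% higher. The interleukin-1 receptor chains fell: Il1r1 had 36.7 ± 1.59 CPM in overexpressing-labelled and 85.9 ± 5.44 CPM in mock-labelled libraries, and Il1rap had 23.3 ± 0.98 against 71.3 ± 4.17 CPM. Osmr, the oncostatin M receptor, and Il13ra1, an interleukin-13 receptor chain, were called lower, with log2 fold changes of -1.17 and -2.10. The adaptor Traf6 rose by 0.70 (edgeR adjusted p = 3.34e-07), and the adaptor Ticam1 by 0.24 (edgeR adjusted p = 0.044).

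Of 10 tested interferon pathway factors, 7 were lower, 0 higher and 3 not called, with a median of -0.84. With library size scaling alone 1 factor was higher. In the main fit, 23.0% of all tested genes were lower and 22.3% higher. Irf7 had 6.31 ± 0.65 CPM in overexpressing-labelled and 148 ± 16.5 CPM in mock-labelled libraries (log2 fold change -4.55, edgeR adjusted p = 1.00e-19). Stat2 had 28.6 ± 2.70 against 109 ± 11 CPM, and Irf9 had 21.7 ± 1.06 against 67.2 ± 5.25 CPM. Irf3, Irf2 and Stat6 were the 3 not called.

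In the list of proteases that trim CC chemokines and genes of heparan sulfate, 11 of 13 tested were lower and 1 was higher. The list's median was -0.61. The shares over all tested genes were 23.0% lower and 22.3% higher. The syndecans Sdc1 and Sdc4, which carry heparan sulfate at the cell surface, had log2 fold changes of -1.29 and -1.35, and Hs6st1, a heparan sulfate sulfotransferase, had -1.05, and all 3 were called lower. Mmp3, a metalloprotease, had 15.4 ± 4.84 CPM in overexpressing-labelled and 59.0 ± 15.1 CPM in mock-labelled libraries. Ndst1, which begins heparan sulfate sulfation, rose by 0.43 (edgeR adjusted p = 2.27e-06).

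**Figure D5:**
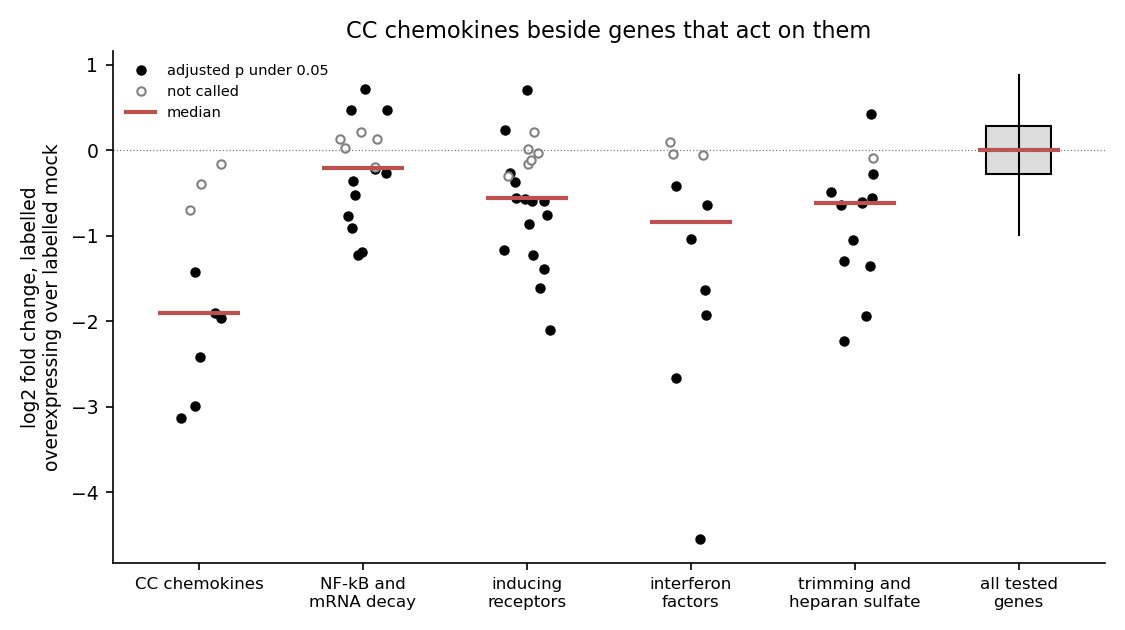
Log2 fold change, overexpressing-labelled over mock-labelled libraries, of tested genes of 5 lists, filled for an adjusted p under 0.05, with a red line at each median and, at the right, the quartiles (box) and the 5th to 95th percentiles (line) of all tested genes. The CC chemokine median is -1.90, the other 4 list medians lie between -0.84 and -0.20, and that of all tested genes is 0.0052.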

How the data were processed

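RNA sequencing counts were analysed for 3 libraries titled oe and 3 titled mock, grouped by their titles. The submitters' processing notes list fastp, featureCounts 1.5.0-p3, HISAT2 2.0.5, StringTie 1.3.3b and build mm39, without role or order. No source used here gives the annotation release, strand setting or filters. Per the file headers, the authors' tables hold raw counts per gene, FPKM, a signal of mean scaled counts per group, and their own log2 fold changes with p-values. The authors' FPKM denominators were the library totals times 1.04 to 1.06 in oe and 0.964 to 0.966 in mock libraries. Gene positions and lengths are those the authors deposited.

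Counts were tested with edgeR (version 4.0.16, R 4.3.3): TMM scaling, filterByExpr with a minimum count of 10 (14502 genes kept), quasi-likelihood test, group only, Benjamini-Hochberg adjustment over all tested genes, threshold 0.05. CPM use TMM-scaled library sizes, and 3 counts correspond to 0.159 to 0.185 CPM. The procedure was tested on simulated data. Counts of replicates differed beyond sampling noise, with chi-square over its degrees of freedom at 3.55 to 7.47. Alternatives used limma (version 3.58.1) and DESeq2 (version 1.42.0). Ratios and intervals used scipy (version 1.17.1).

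The members and gene lists were chosen with earlier results of these data known. Named genes were the members, the transduced subunits, other CC ligands and receptors with at least 10 counts, up to 4 higher and 4 lower genes with the smallest p of each other list, and the 3 nearest profiles of each called member. Ligands and receptors below 10 counts, markers and neighbours named besides these were chosen after their values were seen. Some genes that this rule names are not reported here.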

Additional observations from a re-analysis of the deposited data

How the results depend on the processing

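The 6 called members stayed lower with an adjusted p under 0.05 in all 83 alternative values (of 124 for the 9 members, 123 kept both direction and side of the threshold), which covered 3 other scalings, 2 other filters, DESeq2, limma on FPKM, each library left out and a replicate block. The exception was Ccl27a, called lower by limma on log2(FPKM + 0.1) (-0.61, adjusted p = 0.0397), which made 7 members lower. With a minimum count of 30, Ccl5 and Ccl27a were not tested and 5 members were lower. Ccl5, with 13 of the 83 values, passed the main filter only through the mock-labelled libraries. Leaving out single libraries gave 6 members lower each time, 2784 to 3118 genes higher and 2909 to 3243 lower. Same-numbered libraries did not deviate together (correlations of -0.0030 to 0.021), and with the replicate block 3183 genes were higher and 3297 lower. All 56 alternative ratios to Ccl2 kept their direction, in a design whose exact test cannot pass 0.05.

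Scaled by library size only, the NF-kB list had 6 higher and a median of -0.092, the interferon factors 1 higher and a median of -0.72, the inducing receptors a median of -0.45 and the trimming and heparan sulfate list a median of -0.50. The median of all tested genes was then 0.12. The inducing receptors had 1 higher with no filter, DESeq2 or limma on FPKM, and 1 to 2 when single libraries were left out, and the NF-kB list then had 3 to 5 higher. The cause was not tested. With no filter 28731 genes were tested. Depth limits Ccl5, with 15 counts over the overexpressing-labelled libraries, and Ccl9, Ccl11, Ccl20 and Ccl27a, with 62 to 96.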
